A study of Mus musculus with 5 samples.

Results

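CC chemokine system genes were followed through single-cell RNA sequencing of mouse kidney, 9 of the 32285 genes in the count tables: the 7 ligands Ccl2, Ccl3, Ccl4, Ccl5, Ccl7, Ccl8 and Ccl12, and the 2 receptors Ccr1 and Ccr2. They were taken by symbol, as a family known for drawing monocytes into tissue. All 9 were found in each of the 5 libraries. Male C57BL/6 wild-type mice of 8 to 10 weeks received aristolochic acid I (AAI), a plant nephrotoxin, at 3 mg/kg by intraperitoneal injection. Doses were 3 days apart over 2 weeks. Kidneys were taken at week 2 (acute kidney injury, AKI, 2 libraries) or at week 4 after 2 weeks without AAI (chronic kidney disease, CKD, 2 libraries). The control, 1 library, received vehicle, and the authors place its harvest at baseline, taken here as week 0. All kidneys were dissociated with warm collagenase IV and DNase I, a step that itself can induce early response genes. Nothing used here says whether a library was 1 mouse or a pool, so the p-values below measure only the spread between these libraries, which may be technical. The single control library entered no test.

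Chemokines are small secreted proteins that bind to the surface of vessels and matrix and direct the movement of leukocytes carrying the matching G protein-coupled receptor. Ccl2, Ccl7 and Ccl12 are monocyte chemoattractant proteins that act through Ccr2, the receptor that lets inflammatory monocytes leave the bone marrow and enter injured tissue. Ccl8 is their close relative, known in mice as a ligand of Ccr8. Ccl3, Ccl4 and Ccl5 are inflammatory chemokines that draw T cells and myeloid cells, and Ccl3 and Ccl5 act through Ccr1, which is carried by neutrophils and other myeloid cells. In injured kidney these ligands are known as products of macrophages, stromal cells, tubules and T lymphocytes.

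In RefSeq annotation of GRCm38.p6 the 7 ligands lie on chromosome 11 and the 2 receptors on chromosome 9. The monocyte chemoattractant group forms one run, with Ccl2 at 82035577 to 82037452, Ccl7 at 82045712 to 82047525, Ccl12 at 82101845 to 82103399 and Ccl8 at 82115185 to 82116799. A second run, 1409 kb further on, holds Ccl5 at 83525778 to 83530518, Ccl3 at 83647843 to 83649378 and Ccl4 at 83648624 to 83664683. The spans of Ccl3 and Ccl4 overlap by 755 bases in this annotation, and any bearing of the overlap on the counts was not tested. Ccr1 lies at 123962126 to 123968692 and Ccr2 at 124101918 to 124109140. Of the 9 genes, 5 had a promoter in the RefSeq table. Those of Ccl8 and Ccl12, neighbours separated by 11785 bases and the pair most closely tied to macrophage-like subcluster M0 below, are shown here as the 250 bases before the annotated start on the plus strand, 5′ to 3′, chr11:82114935-82115184 and chr11:82101595-82101844. The capitals mark the letters TATAAA, the TATA box that sets the start of transcription.
Ccl8: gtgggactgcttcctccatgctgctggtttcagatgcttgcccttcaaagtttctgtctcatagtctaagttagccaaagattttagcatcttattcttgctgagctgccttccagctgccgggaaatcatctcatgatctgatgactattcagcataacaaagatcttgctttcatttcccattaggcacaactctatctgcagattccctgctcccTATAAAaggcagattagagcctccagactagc
Ccl12: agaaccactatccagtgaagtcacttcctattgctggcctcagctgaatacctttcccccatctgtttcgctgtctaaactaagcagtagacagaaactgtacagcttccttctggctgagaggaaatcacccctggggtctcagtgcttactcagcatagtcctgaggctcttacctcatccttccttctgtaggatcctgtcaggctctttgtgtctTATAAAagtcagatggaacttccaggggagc

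The TATAAA letters lie 32 to 27 bases before the Ccl8 start and 31 to 26 bases before the Ccl12 start. They are found on the given strand in 7.59% of the 32851 promoters of the table. Neither window holds a match, on either strand, to the NF-kB motif searched (in 1.41% of all promoters), the AP-1 letters TGANTCA (6.75%) or the interferon-stimulated response element searched (2.98%). Such a search says only which letters these windows hold.

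After filtering, 53718 cells were kept, from 8496 to 16330 a library, with 54011934 to 78647754 unique molecular identifiers (UMIs, each 1 captured transcript) a library. Cells were clustered without the 9 genes and without other CC chemokine and receptor genes, and clusters were called "X-like" from marker genes. Median UMIs per kept cell ran from 2887 in CKD 1 to 5586 in CKD 2. The control stood apart in that 38.7% of its barcodes held over 30% mitochondrial UMIs, against 11.1% to 12.7% in the others, and these were left out. Of the kept barcodes 114 occurred both in control and in CKD 2, and 87 of them had over 20 times more UMIs in CKD 2, while other pairs of libraries shared 15 to 51. CKD 1 carried more transcripts of foreign cells than the other libraries: the summed level of 8 T lymphocyte genes in proximal tubule-like cells was 5.20 UMIs per 10000 in CKD 1, against 0.10 in control, 1.08 and 0.694 in AKI and 2.81 in CKD 2. Levels are UMIs of the gene per 10000 UMIs of the cell class in a library. Intervals are exact 95% Poisson intervals, which cover counting error only.

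The monocyte chemoattractant ligands came mainly from macrophage-like cells. Of the Ccl8 UMIs in kept cells, macrophage-like cells held 81.5% in control, 89.8% and 89.1% in AKI, and 78.1% and 89.9% in CKD, though the control share rests on 22 of 27 UMIs. For Ccl7 the shares were 70.3%, 88.2%, 87.7%, 78.1% and 80.4% in the same order of libraries. For Ccl12 they were 94.2%, 89.6%, 90.3%, 71.3% and 86.5%. For Ccl2 they were 65.0%, 79.7%, 84.1%, 67.3% and 76.3%. In each of the 5 libraries, then, over 50% of the UMIs of these 4 ligands lay in macrophage-like cells. Clusters left unnamed held up to 13.7% of Ccl2 and 13.8% of Ccl12, both in CKD 1.

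The sources of Ccl3, Ccl4 and Ccl5 were wider. From AKI to CKD the macrophage-like shares of Ccl3 and Ccl4 were lower and the cDC2-like share of Ccl4 higher. The T lymphocyte-like shares of Ccl4 and Ccl5 in CKD lay on both sides of those in AKI. Macrophage-like cells held 74.7% of Ccl3 in control, 77.1% and 79.2% in AKI, and 54.0% and 49.0% in CKD. For Ccl4 they held 66.9% in control, 54.1% and 58.8% in AKI, and 36.1% and 28.0% in CKD. T lymphocyte-like cells of the 4 named classes (CD8, CD4, regulatory and gamma-delta) held 10.5% of Ccl4 in control, 30.0% and 25.5% in AKI, and 24.4% and 40.3% in CKD. Conventional dendritic (cDC2-like) cells held 3.56% of Ccl4 in control, 4.81% and 5.63% in AKI, and 11.3% and 14.6% in CKD. Ccl5, a product of activated T and natural killer (NK) cells, came from the T classes in 62.4%, 80.4%, 80.1%, 65.1% and 84.4% of UMIs. NK-like cells held 28.7% of Ccl5 in control and 2.98% to 6.14% in the other libraries. Shares depend on how many cells of each class a library yielded as well as on the level per cell.

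**Figure D1:**
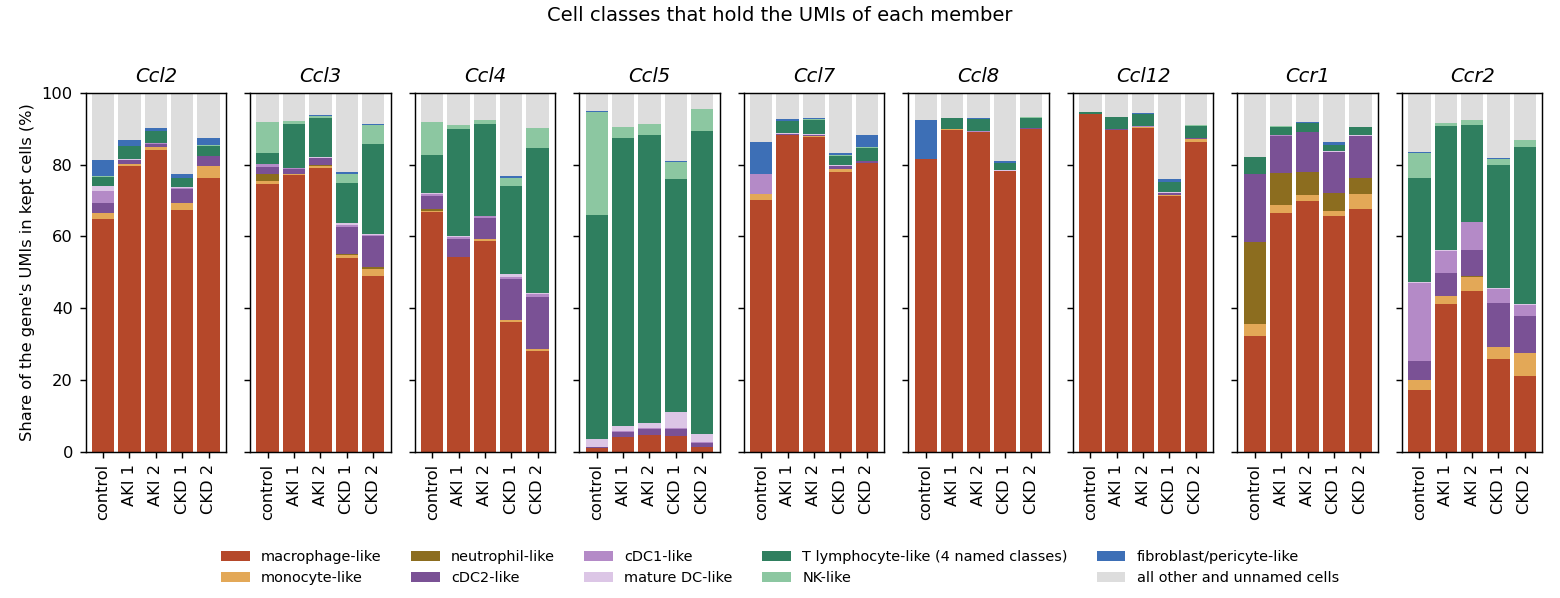
Stacked bars of the share (%) of each gene's UMIs in kept cells held by each cell class, 1 bar per library and 1 panel per gene. Macrophage-like cells fill most of the bars of Ccl2, Ccl7, Ccl8 and Ccl12 in every library, and their share of Ccl4 drops to 36.1% and 28.0% in CKD.

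In the order of median levels over libraries, macrophage-like cells stood first for Ccl3, Ccl4, Ccl7, Ccl8 and Ccl12, and their range over libraries did not overlap that of the next class only for Ccl12. The next class for Ccl12 was monocyte-like cells, at 0.187 to 0.624 UMIs per 10000 in the 4 AAI libraries, against 2.64 to 13.9 in macrophage-like cells. For Ccl2, monocyte-like cells (5.11 to 8.87 in the 4 AAI libraries) and macrophage-like cells (2.20 to 17.4 in all 5) overlapped. In both AKI libraries macrophage-like cells were higher, at 17.4 and 16.5 against 5.72 and 8.87, and in both CKD libraries lower, at 5.33 and 4.67 against 6.85 and 5.11. Fibroblast/pericyte-like cells, the stromal source of Ccl2, came after these with 0.788 in control, 4.53 and 2.98 in AKI and 2.74 and 3.95 in CKD. For Ccl5, NK-like cells (89.8 to 114) and mature dendritic-like cells (90.01 to 126) stood first and overlapped each other. For Ccl3, neutrophil-like cells (4.03 to 8.25) came second and overlapped the macrophage-like range. Monocyte-like, neutrophil-like and mature dendritic-like cells had too few control cells for a value.

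Within macrophage-like cells (698 in control, 738 and 1044 in AKI, 1781 and 604 in CKD) the ligands fell from AKI to CKD, and they differed in how the AKI level stood to the control. Ccl8 was at 0.0877 UMIs per 10000 in control (interval 0.0549 to 0.133), 23.8 and 19.7 in AKI, and 0.872 and 1.22 in CKD. The AKI libraries thus stood at 272 and 225 times the control level and far above both CKD libraries. From AKI to CKD Ccl8 fell by 4.56 ± 0.22 on the log2 scale (SE, 2 against 2 libraries), 23.6-fold (adjusted p = 9.51e-05, edgeR quasi-likelihood test with Benjamini-Hochberg adjustment over all genes tested, as for all adjusted p-values below).

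Ccl7, a second ligand of Ccr2, behaved alike. Its level was 0.386 in control (interval 0.313 to 0.471), 16.0 and 12.6 in AKI, and 2.68 and 2.00 in CKD, with the groups apart from each other. It fell by 2.80 ± 0.18 on the log2 scale, 6.99-fold (adjusted p = 0.000154). Ccl2, the chief Ccr2 ligand, was at 2.20 in control (interval 2.02 to 2.39), 17.4 and 16.5 in AKI, and 5.33 and 4.67 in CKD. Its CKD libraries stayed 2.43 and 2.13 times above the control library. It fell by 1.95 ± 0.10 on the log2 scale, 3.86-fold (adjusted p = 9.63e-05). Ccl12 was at 6.52 in control, 13.9 and 13.6 in AKI, and 2.68 and 2.64 in CKD, so that its CKD libraries stood at 0.411 and 0.405 of the control level. It fell by 2.55 ± 0.09 on the log2 scale, 5.85-fold (adjusted p = 7.86e-05).

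Ccl3 and Ccl4 did not stand above the control in AKI. Ccl3 was at 28.7 in control, 26.2 and 22.9 in AKI, and 4.31 and 3.90 in CKD. Ccl4 was at 142 in control, 131 and 109 in AKI, and 31.3 and 21.8 in CKD. For both, the control was the highest of the 5 libraries and the CKD libraries the lowest. Without the barcodes shared with CKD 2 the control stood at 144 for Ccl4, 6.58 for Ccl12, 2.19 for Ccl2 and 0.0888 for Ccl8. Ccl3 fell from AKI to CKD by 2.76 ± 0.11 on the log2 scale (6.79-fold, adjusted p = 7.86e-05) and Ccl4 by 2.37 ± 0.18 (5.16-fold, adjusted p = 0.000249). Ccl5 was at 0.821 in control, 10.9 and 7.67 in AKI, and 5.26 and 2.18 in CKD, the widest spread within groups of the 7 ligands. It fell by 1.52 ± 0.38 on the log2 scale (2.86-fold, adjusted p = 0.0214), a call that was lost without AKI 1 (adjusted p = 0.179), without AKI 2 (0.0793), with DESeq2 (0.0609) and in cells with a UMI each of C1qa and C1qb (0.0884). In CKD 1 the summed T lymphocyte genes were also highest in macrophage-like cells, at 2.53 against 0.0837 in control, 0.600 and 0.513 in AKI and 0.757 in CKD 2, and their part in the Ccl5 level was not tested.

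In all, 8 of the 9 genes were called lower and 0 higher in CKD in this class, with a median log2 change of -2.37, against 0.01 over all genes tested. The size of the falls moved with the cells taken into the class. Without the scar-associated subclusters the log2 changes were -1.01 for Ccl2, -1.86 for Ccl7, -3.63 for Ccl8, -1.62 for Ccl12, -1.85 for Ccl3 and -1.46 for Ccl4. In cells with a UMI each of C1qa and C1qb they were, in the same order, -0.70, -1.53, -3.26, -1.25, -1.55 and -1.18, and all of these were called. The background was high, since 19.6% of the 12385 genes tested were called lower and 18.9% higher. The summed level of the 7 macrophage markers fell alongside, from 147 and 148 UMIs per 10000 in AKI to 40.5 and 40.9 in CKD (121 in control).

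**Figure D2:**
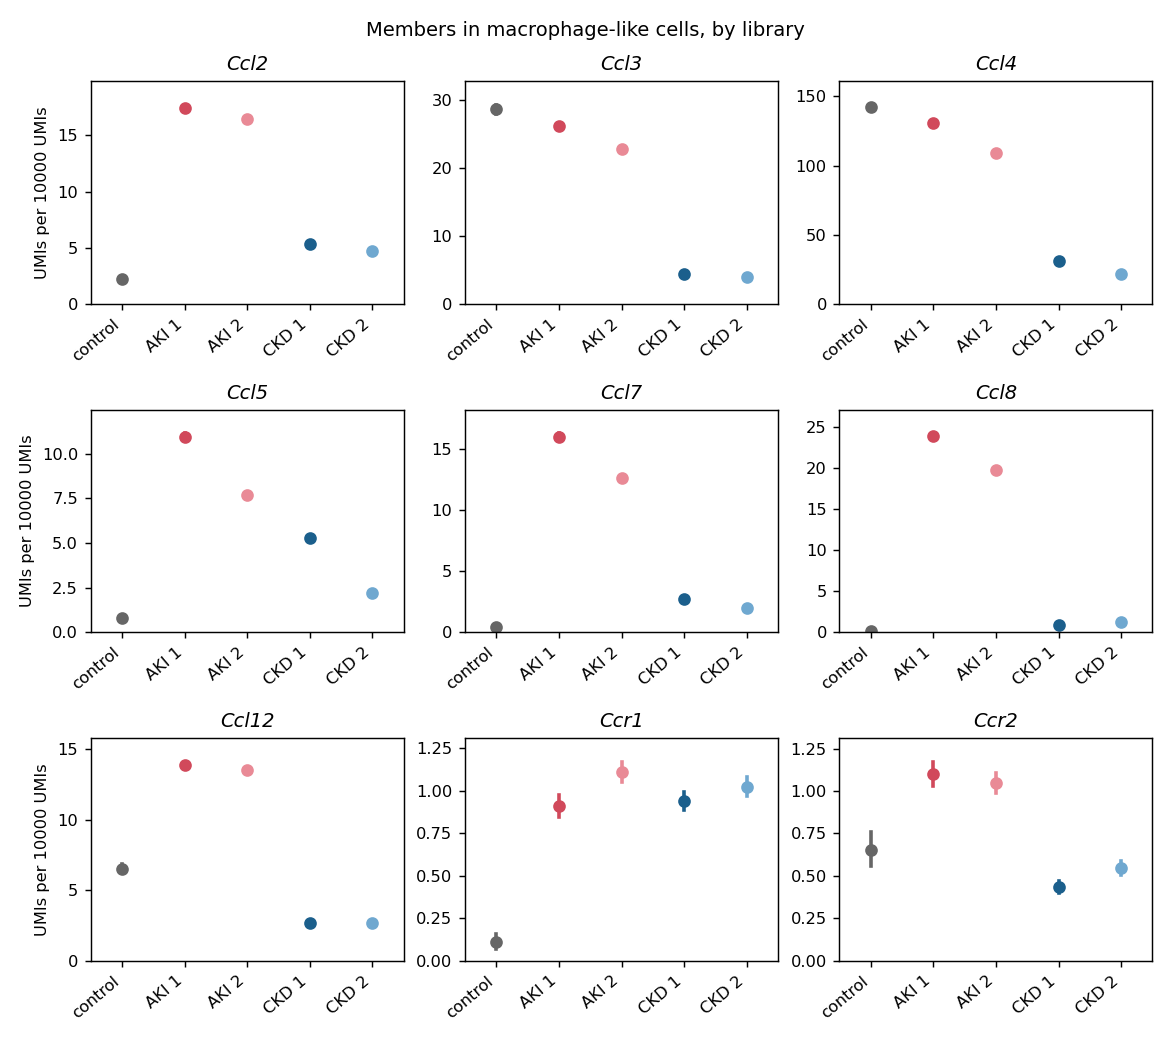
UMIs of each gene per 10000 UMIs of macrophage-like cells, 1 point per library with its exact 95% Poisson interval (often smaller than the point), axes from 0. For the 7 ligands both AKI points lie above both CKD points, while the 4 AAI points of Ccr1 lie together between 0.908 and 1.11.

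The share of macrophage-like cells with at least 1 UMI was also higher in both AKI libraries than in control and CKD for Ccl2 and Ccl8. To set depths equal, each cell was thinned to 1000 UMIs, leaving out 82, 63, 75, 0 and 12 shallower cells of control, AKI 1, AKI 2, CKD 1 and CKD 2. Ccl2 was then seen in 9.42% of cells in control, 52.6% and 54.3% in AKI, and 19.2% and 24.0% in CKD (unthinned 15.6%, 76.6%, 79.9%, 33.9% and 44.4%). The share in B lymphocyte-like cells, which should lack Ccl2, was at most 4.82% in any library after thinning, at a median depth of 2145 to 2986 UMIs. Ccl8 was seen in 0.812% of macrophage-like cells in control, 38.1% and 38.7% in AKI, and 1.74% and 5.74% in CKD (unthinned 1.58%, 54.3%, 56.8%, 4.6% and 14.2%). In B lymphocyte-like cells Ccl8 was seen in 2.41% and 2.38% in AKI and in 0 cells of the other libraries after thinning (unthinned 6.98% and 19% in AKI). Those 0 counts have exact 95% binomial upper bounds of 1.44% in control, 2.55% in CKD 1 and 2.93% in CKD 2, so the control and CKD 1 shares of macrophage-like cells were not told apart from this background. Median depth before thinning was 3478, 10243.5, 10706.5, 3200 and 20308.5 UMIs.

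The UMIs of each ligand but Ccl5 lay in a smaller share of the cells in CKD than in AKI, in counts not thinned. Such shares also depend on the level of the gene, the depth of the cells and the makeup of the class, which were not separated. The top 5% of macrophage-like cells by Ccl8 UMIs held 46.1% and 44.5% of them in AKI, and 100% and 90.8% in CKD. For Ccl7 the top 5% held 37.5% and 38.6% in AKI, and 86.7% and 69.8% in CKD. For Ccl2 they held 28.0% and 29.8% in AKI, and 68.5% and 59.9% in CKD. For Ccl12 the values were 28.2%, 29.0%, 72.5% and 58.7% in the same order. For Ccl3 they were 25.6%, 24.3%, 62.6% and 45.6%, and for Ccl4 18.9%, 19.2%, 54.8% and 38.9%. In control the top 5% held 100% for both Ccl7 and Ccl8. A share of 100% means that no other cell of the class held a UMI of the gene. For Ccl5 the shares overlapped, at 42.5% and 40.1% in AKI and 40.3% and 55.2% in CKD. After thinning, Ccl7 was seen in 61.1% of Ccl2-positive and 21.2% of Ccl2-negative macrophage-like cells in AKI 1, and in 56.1% and 18.7% in AKI 2. The same pair gave 30.1% and 4.10% in CKD 1 and 43.0% and 3.11% in CKD 2. Ccl7 was thus seen more often in Ccl2-positive than in Ccl2-negative cells in all 4 AAI libraries, a description of cells within libraries with no test. In B lymphocyte-like cells Ccl7 was seen in at most 2.38% after thinning.

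The makeup of the macrophage-like class shifted between the stages. It held 5 subclusters, which were M0 (led by Ccl8, Ccl12 and Ccl7, resident-like), M3 (led by Lyz1 and Il1a, resident-like), M6 (led by the cycling genes Prc1 and Cdk1), and M1 and M5, both named scar-associated macrophage-like from Acp5, Ctsk, Mmp9, Ocstamp and Spp1. M0 supplied 74.2% of macrophage-like cells in control, 54.9% and 52.6% in AKI, and 19.8% and 28.5% in CKD. M5 supplied 3.01%, 4.07%, 3.07%, 15.3% and 21.9%. Its control share rests on 21 shallow cells with 14010 UMIs together, and 40 of the 698 control macrophage-like cells shared a barcode with CKD 2. An unnamed cluster, M7, outside the class was led by Ccl12, Pf4 and C3ar1 with C1qa and held 359 cells, 268 of them of CKD 1, where its Ccl2 was at 3.34 and its Ccl12 at 2.96. M1 supplied 45.2% of the class in CKD 1 and 10.6% to 13.2% in the other libraries. By UMIs, M0 gave 50.6% and 43.1% of the class in AKI and 13.8% and 13.2% in CKD. In AKI M0 was the subcluster richest in the monocyte chemoattractant group, while in control M3 was above it for all 4 (Ccl2 5.17 against 1.88) and in CKD 1 Ccl2 was at 16.1 in M3 and 16.0 in M0. The change of the class sum holds both a change of makeup and a change within subclusters.

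Within M0 alone, 6 of the 9 genes were called lower in CKD and 0 higher, against 2.63% of all 9567 genes tested called lower. Ccl8 was at 0.0598 in control, 42.8 and 42.9 in AKI, and 6.06 and 8.55 in CKD, and fell by 2.72 ± 0.18 on the log2 scale (adjusted p = 0.000209). Ccl7 was at 0.304, 26.4, 22.9, 9.29 and 10.3, and fell by 1.5 ± 0.13 (adjusted p = 0.0011). Ccl2 was at 1.88, 23.8, 24.5, 16.0 and 18.4, and fell by 0.66 ± 0.12 (adjusted p = 0.0242). Ccl12 was at 6.85, 21.5, 23.8, 14.8 and 16.1, and fell by 0.72 ± 0.12 (adjusted p = 0.0145). The falls within M0 were thus smaller than those of the whole class. Ccl5 (-0.26, adjusted p = 0.697), Ccr1 (-0.47, 0.0777) and Ccr2 (0.13, 0.826) were not called in M0.

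The other subclusters differed from M0. In M3, 5 genes were called lower, against 7.17% of all genes, among them Ccl3 (-1.65) and Ccl8 (-4.28), while Ccl2 (0.28, adjusted p = 0.215) and Ccl7 (-0.15, 0.739) were not. Ccl2 in M3 was at 11.5 and 11 in AKI and 16.1 and 12.1 in CKD. In cycling M6 all 9 were called lower, against 11.7% of all genes, in sums of only 26 and 42 cells in AKI. In M5, with 30 and 32 cells in AKI and 273 and 132 in CKD, 8 were called lower (9.9% of all genes) and 1, Ccr1, higher (8.31% of all genes). Ccl2 in M5 was at 7.95 and 2.28 in AKI and 0.136 and 0.063 in CKD, the lowest of any subcluster in CKD 1. In M1 only Ccl8 was called lower, against 0.0399% of all genes, from 8.00 and 8.77 in AKI to 0.044 and 0.0143 in CKD, where its AKI cells were shallow (112530 and 133361 UMIs in 89 and 111 cells). By subcluster, Ccl8 levels in CKD were 6.06 and 8.55 in M0 and no more than 0.386 in any of the other 4.

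**Figure D3:**
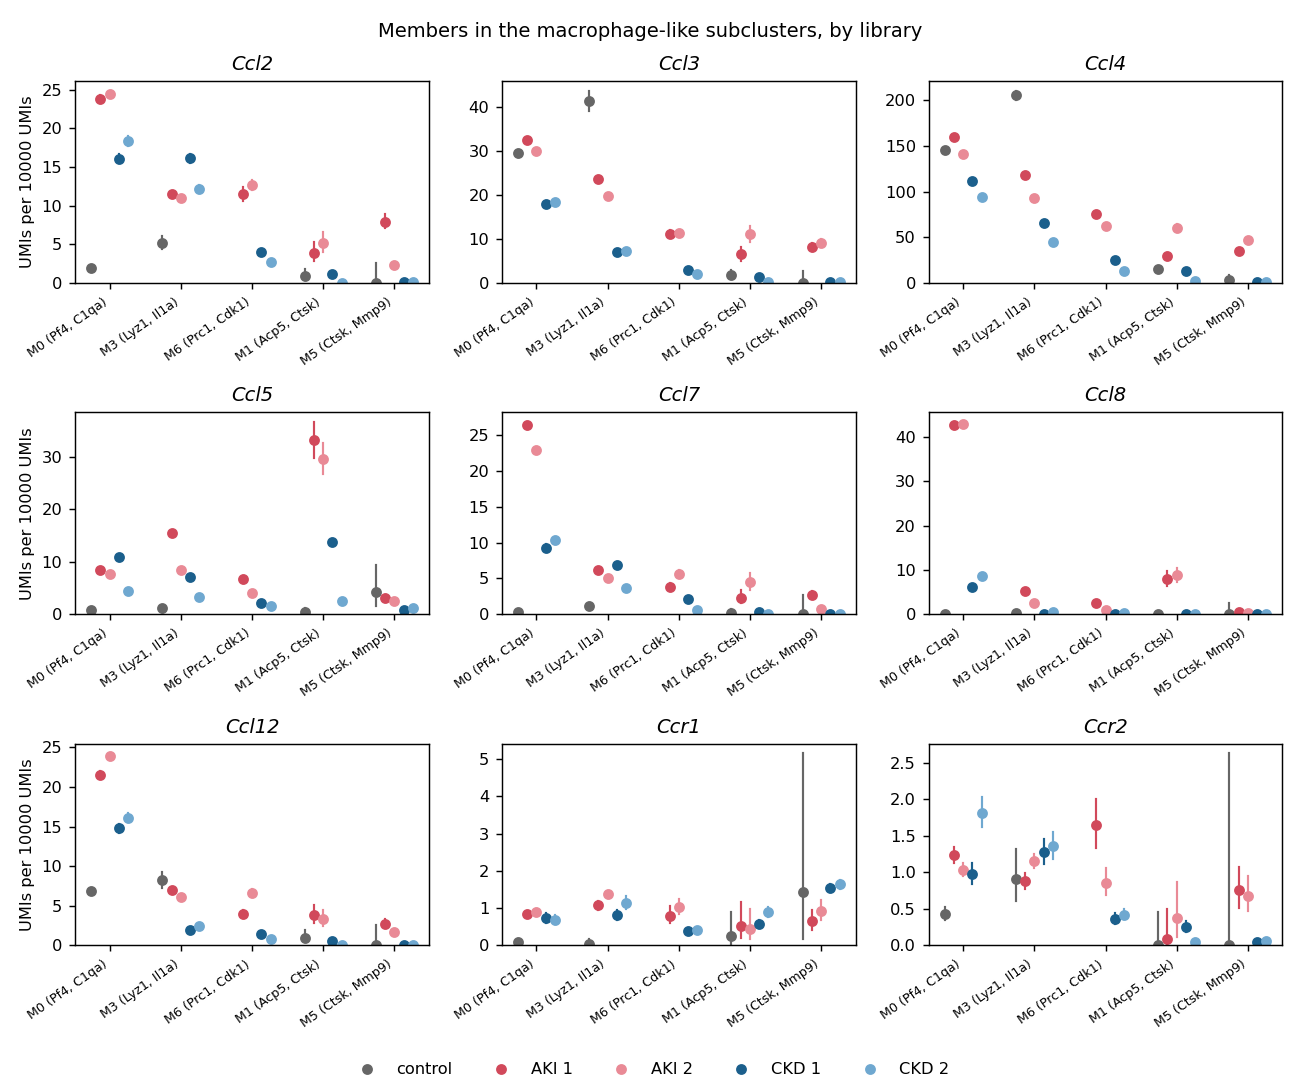
UMIs per 10000 UMIs in the 5 macrophage-like subclusters, 1 colored point per library with its exact 95% Poisson interval, axes from 0 (control M6, 12 cells, not drawn). M0 carries the highest Ccl2, Ccl7, Ccl8 and Ccl12 points of both AKI libraries, and M1 and M5 lie at 1.13 or below for these genes in CKD.

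Beyond macrophage-like cells, calls of lower levels in CKD came from T lymphocyte-like and cDC2-like cells. In CD8 T lymphocyte-like cells 7 of 9 genes were called lower, against 6.44% of all genes. The makeup of this class shifted too. Its cycling cluster A5 (Birc5, Ube2c) held 237 and 209 of 2822 and 2558 cells in AKI. In CKD A5 held 1187 and 815 of 2513 and 2473. The change of makeup was not separated from change within clusters. Among the ligands that T cells are known to make, Ccl5 was at 62.3 in control, 90.6 and 91.9 in AKI, and 45.8 and 55.4 in CKD, and fell by 0.87 ± 0.12 on the log2 scale (adjusted p = 0.0109). Ccl4 was at 23.8 in control, 27.7 and 29.7 in AKI, and 11.4 in both CKD libraries, and fell by 1.36 ± 0.08 (adjusted p = 0.00449). Ccl3 was at 1.33, 1.68, 2.03, 0.549 and 0.832, and fell by 1.43 ± 0.22 (adjusted p = 0.0129). The other 4 calls, Ccl2 (-1.97), Ccl7 (-2.78), Ccl8 (-4.82) and Ccl12 (-2.26), were of genes at 0.727% to 2.14% of the macrophage-like level of the same AAI library. The summed macrophage markers stood at 0.491% to 1.16% of their macrophage-like level in those libraries, a share of the same order, and its part in these calls was not tested. None of the 7 calls held without AKI 1 (adjusted p = 0.0547 to 0.105, edgeR) or without AKI 2 (0.0848 to 0.127), though each gene stayed lower.

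In Treg-like cells (regulatory T lymphocytes) 7 of the 8 genes tested were called lower, against 3.15% of all genes, with Ccl5 at 38.6 and 32.7 in AKI and 20.6 and 23.2 in CKD, a call lost without AKI 1 (adjusted p = 0.0560). Ccl2, Ccl7, Ccl8 and Ccl12 stood there at 0.840% to 2.83% of the macrophage-like level of the same AAI library, beside 0.520% to 1.06% for the macrophage markers, and the part of foreign transcripts was not tested. The Treg-like class shifted in makeup as well. Its cycling cluster A41 held 32 and 31 of 576 and 738 cells in AKI, and 72 and 58 of 276 and 399 in CKD. The part of this shift in the Treg-like falls was not tested. In CD4 T lymphocyte-like cells only Ccl8 was called (-4.59, adjusted p = 0.0227, and 0.0775 without AKI 2), against 0.0345% of all genes, and Ccl5 was at 36.1 and 35.7 in AKI and 39.3 and 40.2 in CKD, with no call. Ccl8 in CD4 cells stood at 1.16% to 2.2% of the macrophage-like level in the AAI libraries, beside 0.764% to 1.28% for the macrophage markers, which was not tested further. In cDC2-like cells 4 of 9 were called lower, against 0.448% of all genes. Of these Ccl5 was at 3.58 in control, 26.5 and 19.7 in AKI and 15.1 and 12 in CKD (-0.86, adjusted p = 0.0161). Ccl7, Ccl8 and Ccl12 were at no more than 0.357 in any library of that class. Their levels there were 0.551% to 5.77% of the macrophage-like level, beside 2.66% to 6.56% for the macrophage markers in the AAI libraries, and the part of foreign transcripts was not tested. All 4 cDC2 calls were lost with library totals in place of TMM (adjusted p = 0.0576 to 0.195, edgeR), and those of Ccl5, Ccl7 and Ccl12 with doublets kept (0.109 to 0.792).

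Calls in the other direction came from tubule, though Ccl5 levels also stood higher in CKD in other non-immune classes, given at the end of this paragraph. Ccl5 was called higher in CKD in DCT/CNT-like cells (distal tubule), at 0.0666 in control, 2.04 and 2.79 in AKI, and 6.61 and 5.54 in CKD (1.46 ± 0.18, adjusted p = 0.000369). Ccl4 was called higher there too, at 0.274, 1.22, 1.11, 3.69 and 2.25 (1.49 ± 0.21, adjusted p = 0.000858). These 2 of the 7 genes tested stood against 1.89% of all genes called higher. In PT-like cells (proximal tubule) Ccl5 was called higher, at 0.0876, 1.75, 1.17, 5.38 and 3.15 (1.59 ± 0.29, adjusted p = 0.0395, and 0.400 without AKI 2), against 1.07% of all genes. The summed T lymphocyte genes moved with these levels, from 1.2 and 1.13 in AKI to 5.92 and 4.61 in CKD in DCT/CNT-like cells, and from 1.08 and 0.694 to 5.20 and 2.81 in PT-like cells. Their part in the rise of Ccl5 and Ccl4 was not tested. With doublets kept none of these 3 calls held (adjusted p = 0.415 for Ccl5 and 0.148 for Ccl4 in DCT/CNT-like cells and 0.127 in PT-like cells, edgeR), and the PT call was also lost with library totals (0.0765). Ccl5 in endothelial-like cells was at 2.42 and 2.63 in AKI and 7.72 and 4.24 in CKD. In fibroblast/pericyte-like cells it was at 4.24 and 2.63, then 14.8 and 11.4. In collecting duct principal-like cells it was at 1.13 and 1.01, then 5.76 and 2.13. In thick ascending limb-like cells it was at most 2.20 in AKI, then 4.75 and 2.41. Collecting duct intercalated-like cells overlapped, at 2.89 and 0.420 in AKI and 5.83 and 1.02 in CKD. None of these changes was called.

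In the other 13 classes none of 78 tests of a member passed (edgeR), where 0.0395% of all gene by class tests did. Of these tests 23 had an unadjusted p under 0.05, and DESeq2 called 7 of 73. In monocyte-like cells Ccl2 was at 5.72 and 8.87 in AKI and 6.85 and 5.11 in CKD, with a log2 change of -0.36 (interval -0.83 to 0.12). In NK-like cells Ccl5 was at 112 and 114 in AKI and 105 and 89.8 in CKD (-0.27, interval -0.70 to 0.17). The intervals leave room for changes in either direction in both cases.

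**Figure D4:**
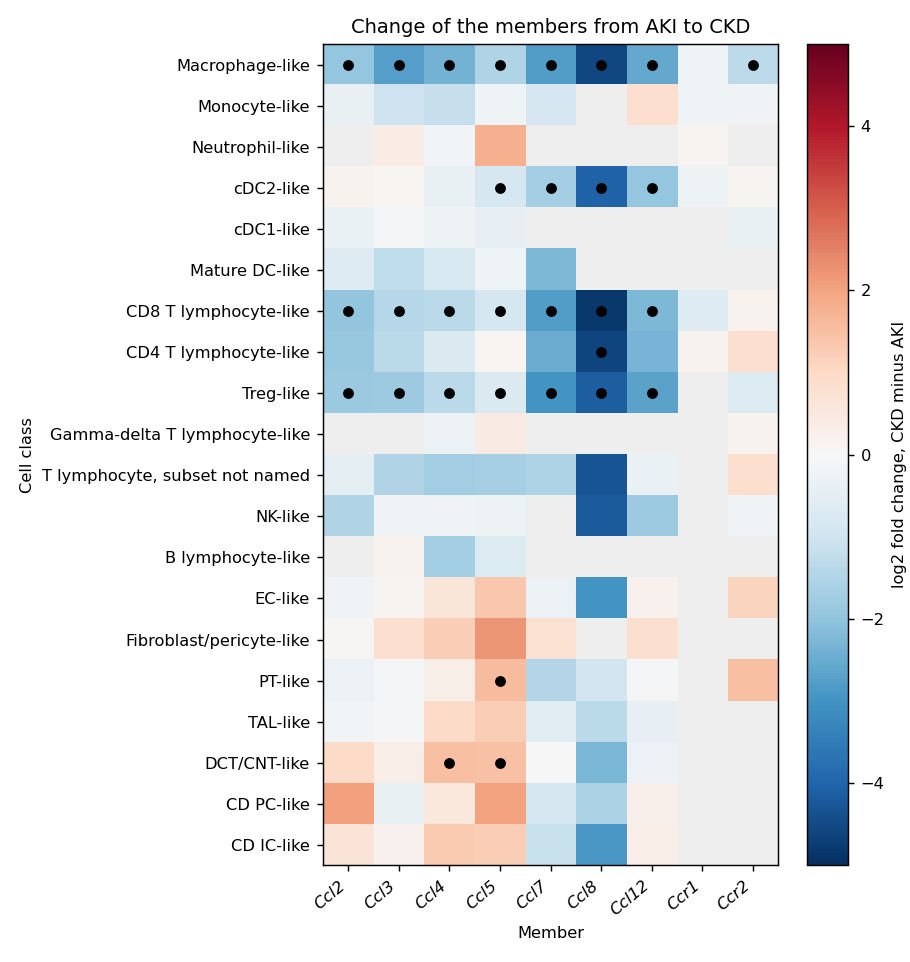
Color gives the log2 fold change, CKD minus AKI, of each gene (columns) in each cell class (rows), clipped at -5 and 5, with gray where the gene was not tested and a black dot where the adjusted p was under 0.05. Dots on blue, lower in CKD, fill 8 of 9 columns in macrophage-like cells, and dots on red occur only in PT-like and DCT/CNT-like rows.

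The change from AKI to CKD was then compared between macrophage-like cells and the 4 named T classes pooled. Both sums also changed in makeup, as given above, and this was not separated from change within clusters. The test was an interaction of class and phase with library as a block, in which 19.7% of all genes passed in either direction. For Ccl3 the fall in macrophage-like cells exceeded that in T cells by 1.39 ± 0.24 on the log2 scale (adjusted p = 0.00634), with T cell levels of 1.27 and 1.49 in AKI and 0.465 and 0.629 in CKD. For Ccl4 the difference was -1.27 ± 0.18 (adjusted p = 0.00244), with T cell levels of 22.1 and 22.6 in AKI and 11.2 and 9.88 in CKD. For Ccr2 it was -1.48 ± 0.12 (adjusted p = 0.000363), since Ccr2 in T cells was at 0.280 and 0.303 in AKI and 0.304 and 0.356 in CKD. For Ccl5 it was -1.03 ± 0.44 and did not pass (adjusted p = 0.150). Ccl2, Ccl7, Ccl8, Ccl12 and Ccr1 differed by -0.25 to 0.14, with no call. Their T cell levels were low, with Ccl8 at 0.235 and 0.355 in AKI beside 23.8 and 19.7 in macrophage-like cells. The part of foreign transcripts in these T cell levels was not tested.

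The receptors reached their highest levels in other cell classes than most of the ligands. Ccr1 was highest in neutrophil-like cells, at 8.50 and 13.1 in AKI and 10.9 and 14 in CKD, a range apart from that of the next class, monocyte-like cells at 0.852 to 1.62. In cDC2-like cells it was at 0.573 in control and 0.945 to 1.24 after AAI. In macrophage-like cells it was at 0.108 in control (27 UMIs), 0.908 and 1.11 in AKI, and 0.937 and 1.02 in CKD, so that all 4 AAI libraries stood 8.45 to 10.3 times above the control library. Its change from AKI to CKD was -0.22 (interval -0.47 to 0.02, adjusted p = 0.214), the 1 gene of the 9 with no call in this class. Over 14 alternative settings its log2 change ran from -0.92 to -0.04, and 11 of them gave the same outcome. Without CKD 2 it was called lower (-0.34, adjusted p = 0.0235). Without the scar-associated subclusters it was called lower (-0.88, adjusted p = 0.000747), and in M5 it was higher in CKD, at 0.652 and 0.922 in AKI and 1.53 and 1.64 in CKD (0.89 ± 0.21, adjusted p = 0.00844). Macrophage-like cells held 32.1% of all Ccr1 UMIs in control and 65.8% to 69.8% after AAI.

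Ccr2, the mark of newly arriving monocytes, was highest in monocyte-like cells, at 3.05 and 4.34 in AKI and 2.37 and 4.35 in CKD, overlapping cDC1-like cells at 1.85 to 3.28. Gamma-delta T lymphocyte-like cells followed at 0.895 to 1.69 and cDC2-like cells at 1.15 to 1.76, and these ranges overlap. In macrophage-like cells Ccr2 was at 0.653 in control, 1.10 and 1.05 in AKI, and 0.432 and 0.545 in CKD, and fell by 1.31 ± 0.15 on the log2 scale (2.49-fold, adjusted p = 0.000972). Without the scar-associated subclusters the change was -0.46 (adjusted p = 0.0267), and among macrophage-like cells with a UMI each of C1qa and C1qb it was -0.24 and was not called (adjusted p = 0.308). In M5 Ccr2 was at 0.752 and 0.681 in AKI and 0.0529 and 0.0607 in CKD, and in M0 at 1.23 and 1.03 against 0.973 and 1.82. The Ccr2 UMIs were split between macrophage-like cells (17.3% to 44.8%), the 4 T classes (27.2% to 44.0%), cDC2-like cells (5.16% to 12.3%) and cDC1-like cells (3.30% to 21.9%, highest in control).

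**Figure D5:**
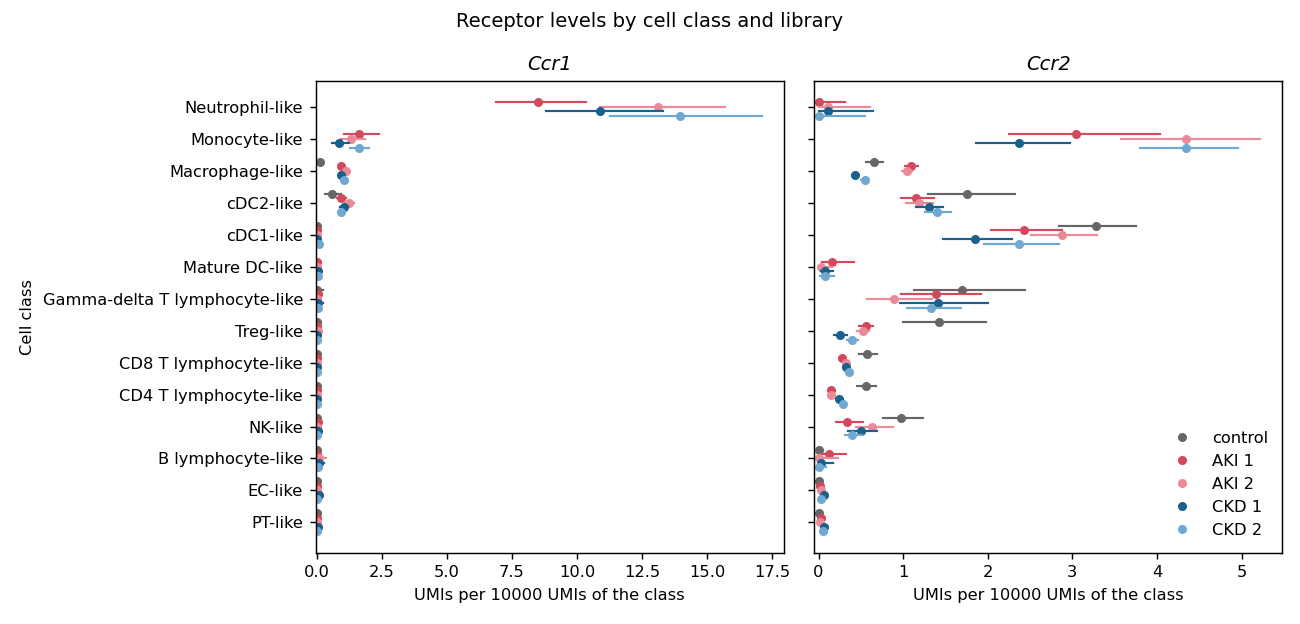
UMIs of Ccr1 (left) and Ccr2 (right) per 10000 UMIs of a cell class (rows), 1 point per library with at least 20 cells of the class and its exact 95% Poisson interval. Ccr1 peaks in neutrophil-like cells at 8.50 to 14, and Ccr2 in monocyte-like cells at 2.37 to 4.35.

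Lists of related genes were read in the same macrophage-like fit, where 19.6% and 18.9% of all genes were called lower and higher. Of 9 other CC chemokines tested, 2 were lower and 1 higher in CKD. Among other CC and atypical receptors, Ccrl2 (-2.01) was called lower, and Ccr3 (4.89) and Ccr7 (1.07) higher. Of 10 CX3C and CXC genes, 6 were lower and 0 higher, led by the monocyte receptor Cx3cr1 (-2.23) and the interferon-induced chemokine Cxcl10 (-1.82). Of 15 genes of signalling below chemokine receptors, 9 were lower and 3 higher, among the former Rgs1 (-1.80), which dampens G protein signals, and Dock2 (-1.64), which drives leukocyte movement.

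Genes that are induced alongside chemokines went the same way. Of 14 NF-kB and cytokine genes, 11 were lower and 0 higher, led by Il1a (-3.52), Il6 (-2.70), Cd83 (-2.17) and Nfkbiz (-2.11), and of 10 interferon-stimulated genes 8 were lower and 0 higher, led by Ifit2 (-2.54). Of 14 dissociation and stress genes, all 14 were lower, and their summed level was 357 in control, 267 and 258 in AKI, and 108 and 109 in CKD. The control thus stood highest for these genes as it did for Ccl3 and Ccl4. In CD8 T lymphocyte-like cells 13 of the 14 were lower too, against 6.44% of all genes. In cDC2-like cells 0 were called, where only 0.448% of all genes were called lower. With so few calls in that class, the 0 does not tell whether these genes changed there. The part of dissociation in the levels of the ligands was not tested.

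Over 103 sums of 22 classes and 5 libraries, the genes whose levels went most alike were looked up as a description. Such points share library and cell class. Ccl12 went most like C1qa (r = 0.93), C1qc (0.93) and C1qb (0.92), the complement genes that mark macrophages. Ccr1 went most like Pilra (0.95), Nlrp3 (0.94) and Mefv (0.94), genes of myeloid cells. Ccl2 went most like Ifi207 (0.87) and Ccl3 most like Fcer1g (0.84). Among the 9 themselves the closest pairs were Ccl3 with Ccl4 (0.85), Ccl2 with Ccl7 (0.83) and Ccl7 with Ccl8 (0.81), and Ccl5 with Ccr1 stood at -0.01.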

How the data were processed

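Single-cell RNA sequencing (10x Chromium 3′ v2) of 5 kidney libraries was used. The authors deposited raw UMI counts per gene and cell barcode. Per the labels they used Cell Ranger 7.2.0 with STAR and GRCm39, whereas headers of the AKI and CKD count tables name Cell Ranger 5.0.0.

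Barcodes with at least 200 genes and at most 30% mitochondrial UMIs were kept, and predicted doublets were removed (0.8% per 1000 barcodes). Cells were clustered with Leiden (leidenalg 0.10.2, 3000 variable genes, 40 components corrected by library with a reimplementation of the Harmony algorithm, resolution 1.5) and named by marker scores whose thresholds were set after the clusters were seen. Of the clusters 13 stayed unnamed, with 8774 cells.

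UMIs were summed per library and class. CKD was compared with AKI in classes of at least 20 cells in each of the 4 libraries by edgeR 4.0.16 (quasi-likelihood test, TMM, filterByExpr, Benjamini-Hochberg, threshold 0.05), tested on simulated data first. DESeq2 1.42.0 and other settings were alternatives. The 9 genes were all named, and of each list at most 4 genes with the largest called change were eligible. Some results on other receptors are not reported here. Members and lists were chosen with earlier results of these data known.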

Additional observations from a re-analysis of the deposited data

Results flagged for a closer look

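In class sums whose makeup also changed, Ccl3, Ccl4 and Ccr2 changed differently between macrophage-like and T lymphocyte-like cells by the interaction test of edgeR. The log2 difference of the CKD-against-AKI change, macrophage-like minus T, was -1.39 for Ccl3 (adjusted p = 0.00634), -1.27 for Ccl4 (0.00244) and -1.48 for Ccr2 (0.000363).

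A group of 151 cells left unnamed, M13, led by Ccl8, Mgl2 and Ccl7 and holding 1 control, 18 and 18 AKI and 78 and 36 CKD cells, entered no comparison. Its Ccl8 level over all libraries was 11.1 UMIs per 10000, above the 0.0877 of control macrophage-like cells. Within CKD it stood at 0.526 and 1.24, beside 0.872 and 1.22 in macrophage-like cells, so this pooled level is not comparable with the control level.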

How the results depend on the processing

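With 2 libraries a group the calls are limited by library number, and with 1 control library no change from control could be tested. Ccl2, Ccl3, Ccl4, Ccl7, Ccl8 and Ccl12 stayed lower in CKD and called in macrophage-like cells in all 14 alternatives (another normalization, no filter, DESeq2, other clustering, cell filters and each library left out), with log2 changes from -4.87 to -0.70. With 1 library left out 1401 to 3131 genes and 7 to 9 members were called lower and 1012 to 3083 genes higher in this class, against 2428, 8 and 2345 with all. The lowest counts were those without AKI 1 (1401 and 1012) and without AKI 2 (1499 and 1180). Only cells with C1qa and C1qb gave 1289 lower and 1197 higher.

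The replicate block (the replicate number of the labels) gave 8 members and 2345 genes lower and 2288 higher in macrophage-like cells and changed none of the 22 calls in other classes. Same-numbered libraries correlated at 0.10 over 10482 genes, and with 2 pairs the pairing is not established.

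Single subclusters, tried after the data were seen and holding fewer cells, called 252 genes lower and 208 higher in M0, 3 and 4 in M1 (1 member lower), 623 and 478 in M3 (5 members lower), 885 and 743 in M5 (1 member higher), and 1025 and 724 in M6. Directions turned for Ccr2 in M0 (0.13) and M3 (0.31), for Ccl2 in M3 (0.28), and for Ccr1 in M1 (0.73) and M5 (0.89). Why was not tested. The interaction of class and phase called 5 members without CKD replicate 1, the other 2 being Ccl2 (0.39) and Ccl5 (-1.73), against 3. Its uncalled differences turned sign for Ccl12 with clustering without the correction by library (0.066) and for Ccl8 with doublets kept (-0.062). With 1 library left out they ran from -0.35 to 0.39 for Ccl2, -0.72 to 0.23 for Ccl7, -0.74 to 0.13 for Ccl12, -0.42 to 0.47 for Ccl8 and -0.39 to 0.37 for Ccr1. In the other classes 31 of 257 alternative values lost their call, 17 of them without 1 AKI library, 6 with doublets kept (3 in cDC2-like and 3 in tubule classes), 5 with library totals (4 cDC2, 1 PT), 2 with uncorrected clustering and 1 at the 15% mitochondrial limit (both cDC2), and 0 reversed.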
